A study of Homo sapiens with 4 samples.

Results

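Ubiquitin-conjugating enzymes and deubiquitinases were followed in SH-SY5Y neuroblastoma cells treated with origamicin. The members were taken by name: every gene symbol that starts with UBE2, UCHL or OTUD, or with USP followed by a digit, each read on its brightest probe set across the arrays. This gave 92 genes of the 14884 that have a named probe set. Of the 92, 23 are coding genes for E2 enzymes, 58 are coding genes for deubiquitinases, and 10 are pseudogenes, antisense transcripts or other noncoding genes. The remaining member, USP6NL, takes its name from USP6 but encodes a GTPase-activating protein for Rab proteins.

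The study set 2 arrays of cells given origamicin, which the submitters describe as an inhibitor of protein disulfide isomerase, at 30 µM for 24 h, against 2 arrays of cells given the solvent methanol for 24 h (mock). SH-SY5Y is an established human neuroblastoma line with a noradrenergic neuronal character, and both groups were grown in the same serum-containing medium. Replicates are labelled as biological, with no word on separate cultures or days, so a p-value here covers only how far these arrays differ, which may be technical. Values are log2 expression per probe set from Affymetrix Human Gene 2.0 ST arrays. They serve to compare groups within a gene, not one gene with another. A value written with ± is a log2 difference, origamicin minus mock, with its moderated SE (n = 2 per group), and values without ± given by group are log2 levels, one per array.

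Ubiquitin is a small protein that is attached to other proteins in a cascade. An E1 enzyme activates it, an E2 enzyme (the UBE2 family) carries it, and an E3 ligase brings the loaded E2 to the substrate. The E2 often decides which lysine of ubiquitin is used to build a chain, and so whether the substrate goes to the proteasome (K48 and K11 chains) or into signalling and DNA repair (K63 chains). Deubiquitinases cut ubiquitin off again. The UCH, OTU and USP families are cysteine proteases, and in neurons UCHL1 is among the most abundant of them. Misfolded proteins of the endoplasmic reticulum (ER) are also removed through this cascade, with UBE2G2 and the UBE2J enzymes at the ER membrane.

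In the limma fit with a single prior variance, no member and no other gene passed an adjusted p of 0.05. When the spread between arrays was modelled along the intensity scale, 4 members passed (4.88%, beside 4.3% of all genes). The promoters of these 4 are shown here. Each sequence is the 250 bases before the annotated transcription start, 5′ to 3′ on the strand of the gene, from RefSeq on GRCh38.p14. The windows are chr5:6448609-6448858 on the plus strand for UBE2QL1, chr2:233566783-233567032 on the minus strand for USP40, chr4:41256678-41256927 on the plus strand for UCHL1 and chr19:55407789-55408038 on the minus strand for UBE2S. Capitals mark matches, on either strand, to any of 7 short motifs: the CCAAT box (CCAAT), the GC box (GGGCGG), the TATA box (TATAAA), the cAMP response element (TGACGTCA), the cell cycle homology region (TTTGAA), the core of the antioxidant response element (TGACNNNGC) and the E-box (CACGTG).
UBE2QL1: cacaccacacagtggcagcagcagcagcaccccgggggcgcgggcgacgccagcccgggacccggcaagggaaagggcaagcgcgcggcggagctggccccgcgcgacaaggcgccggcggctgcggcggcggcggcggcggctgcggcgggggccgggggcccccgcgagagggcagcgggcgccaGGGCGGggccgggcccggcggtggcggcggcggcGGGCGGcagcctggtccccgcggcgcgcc
USP40: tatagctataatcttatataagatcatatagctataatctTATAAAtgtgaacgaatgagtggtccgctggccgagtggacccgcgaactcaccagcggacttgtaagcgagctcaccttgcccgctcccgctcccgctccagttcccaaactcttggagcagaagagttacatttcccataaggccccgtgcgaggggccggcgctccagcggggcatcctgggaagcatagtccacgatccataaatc
UCHL1: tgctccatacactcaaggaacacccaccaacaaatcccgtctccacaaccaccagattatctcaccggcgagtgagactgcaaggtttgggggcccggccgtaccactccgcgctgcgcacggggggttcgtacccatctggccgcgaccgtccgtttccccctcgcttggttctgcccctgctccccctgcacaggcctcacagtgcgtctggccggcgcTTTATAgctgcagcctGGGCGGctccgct
UBE2S: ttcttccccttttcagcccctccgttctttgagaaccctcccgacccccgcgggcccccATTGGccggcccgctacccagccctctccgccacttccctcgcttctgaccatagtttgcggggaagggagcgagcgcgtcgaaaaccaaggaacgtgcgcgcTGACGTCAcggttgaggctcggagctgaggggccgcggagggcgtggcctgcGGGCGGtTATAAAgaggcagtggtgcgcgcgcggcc

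The 4 windows differ in composition, from 52.8% G and C in USP40 and 64.4% in UCHL1 to 67.6% in UBE2S and 85.6% in UBE2QL1. UBE2S and UCHL1 each hold a TATA box match at bases -29 to -24 from the start. The UBE2S match reads TATAAA on the strand of the gene, while that of UCHL1 reads TTTATA, the motif on the opposite strand. The motif is present in 10.7% of all 35116 promoter windows and in 6.98% of the 86 windows of tested members. USP40 holds its match farther away, at bases -210 to -205. UBE2S alone among the windows of tested members holds the cAMP response element, at bases -88 to -81, which 1.65% of all windows hold. A GC box is present in 74.4% of the windows of tested members and in 42.6% of all windows, and 3 of the 4 printed windows have one, the exception being USP40. The GC box is made of G and C only, and the median G and C content was 69.4% in the members' windows and 58% in all windows. The part of base composition in the motif shares was not tested. A CCAAT box stands in 23.3% of the members' windows and 32% of all windows, and of the printed 4 only UBE2S has one. The cell cycle homology region (4.65% against 13.3% of all windows), the antioxidant core (11.6% against 10.9%) and the E-box (5.81% against 6.34%) have no match in any of the 4. These windows cover 61 of the 82 tested members. A match describes letters in the window and not a bound factor.

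Across the 11883 tested genes the replicates correlated at r = 0.994 (origamicin) and 0.995 (mock), while between-group pairs gave 0.991 to 0.992. All 12 noradrenergic markers with a named probe set passed the filter on dim genes. Among them DBH, which makes noradrenaline, lay at 12.38 and 12.33 in origamicin-treated cells and 12.53 and 12.53 in mock cells on the log2 scale, and TH, which makes the precursor of dopamine, at 5.64 and 5.69 in origamicin-treated cells and 5.52 and 5.82 in mock cells. All 5 named glial and Schwann cell markers passed the filter too, with SOX10 between 5.21 and 5.48. The fibroblast and endothelial markers DCN and PECAM1 lay below it, and LUM, at 6.11 to 6.29, passed. The filter therefore does not separate these cell types, and levels of different probe sets are not compared here.

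Most transcripts of this enzyme group differed little between origamicin-treated and mock cells. Of the 92 members, 82 were bright enough to test. 37 were higher and 45 lower in origamicin-treated cells, with a median log2 difference of -0.01, beside -0.01 over all genes. The range was -0.43 to 0.57, and 1 member, UBE2QL1, differed by more than 0.5. In the limma fit across all 11883 genes no member and no other gene (0%) passed an adjusted p of 0.05. At an unadjusted p below 0.05 there were 12 members (14.6%), beside 16.4% of all genes. On the higher side there were 8 members, where 7.99% of all genes stood, and on the lower side 4 members, where 8.42% of all genes stood. With a prior variance that follows intensity, 4 members passed an adjusted p of 0.05 (4.88%), beside 4.3% of all genes: UBE2QL1, USP40 and UCHL1 rose and UBE2S fell. The groups did not overlap for 38 members (46.3%), beside 48.6% of all genes. These shares lie near the background, so the counts say nothing particular about the enzyme group. All 12 members at an unadjusted p below 0.05 kept their direction under all 12 alternatives. Their groups do not overlap, so leaving out 1 array could not have changed a direction. Among the other settings only equal array medians and quantile normalization could, as the rest leave these differences unchanged. The count of 12 changed with single arrays. Leaving out an array also lowers the residual degrees of freedom. Without origamicin replicate 1 they became 5 (6.1%, beside 12.4% of all genes), without mock replicate 1 they became 5 (6.1%, beside 10.7%) and without mock replicate 2 they became 6 (7.32%, beside 10.6%). With the replicate number as a block there were 7 (8.54%, beside 14.5%). In these settings the members' share was below that of all genes. The shares lay closer with no filter (12%, beside 12.9%), with probe sets averaged (16%, beside 16.3%) and with an intensity trend (18.3%, beside 19.7%). The difference between the shares was not tested.

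**Figure D1:**
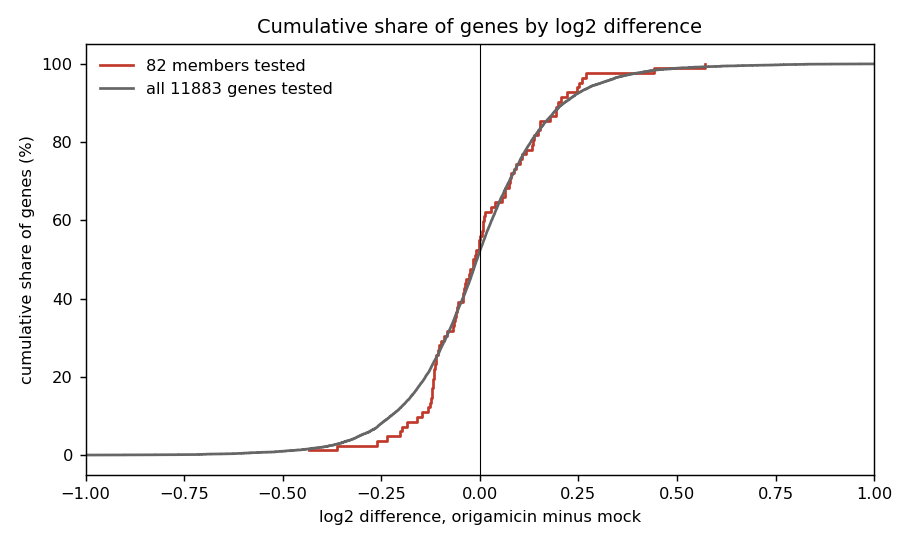
Cumulative share of genes (vertical axis, percent) by log2 difference, origamicin minus mock (horizontal axis), for the 82 members tested and for all 11883 genes tested. The curves lie close to each other, with medians of -0.01 each and quartiles of -0.11 and 0.10 in both sets.

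The ubiquitin-conjugating enzymes held the largest change of all members. UBE2QL1, an E2-like protein of the UBE2Q family, stood at 8.09 and 8.04 in origamicin-treated cells, against 7.52 and 7.48 in mock cells. Both treated arrays lay above both mock arrays, a 1.48-fold higher level. The log2 difference was 0.57 ± 0.07 (moderated SE, n = 2 per group, 95% interval 0.40 to 0.74). Its limma adjusted p was 0.104, short of the threshold, and 0.0062 with an intensity trend. It kept an unadjusted p below 0.05 under all 12 alternatives, with differences from 0.55 to 0.60. Of its UBE2Q relatives, UBE2Q1 differed by 0.06 ± 0.07 and UBE2Q2 by -0.13 ± 0.09, neither past the test. The other named enzyme of this mixed group, UBE2O, a large protein that combines E2 and E3 activity, differed by -0.07 ± 0.06.

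UBE2S, the E2 that extends K11 chains for the anaphase-promoting complex, was lower. It stood at 7.999 and 7.964 in origamicin-treated cells and at 8.412 and 8.275 in mock cells, with no overlap. The log2 difference was -0.36 ± 0.08 (95% interval -0.57 to -0.15), a 1.28-fold lower level. The limma adjusted p was 0.179 (0.0302 with an intensity trend), and the unadjusted p stayed below 0.05 under all 12 alternatives. UBE2T, the E2 of the Fanconi anaemia repair pathway, overlapped between groups, at 10.56 and 10.44 in origamicin-treated cells and 10.56 and 10.47 in mock cells, and its difference was -0.02 ± 0.08. UBE2C, which starts the chains that UBE2S extends, had no named probe set and was not analysed here.

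Genes of mitosis were lower on the same arrays. Of a list of 28 mitosis and G2/M genes, 24 were tested and 23 were lower, with a median of -0.15. The list was chosen with earlier results of these data known, so its shares may be set in part by that choice. At an unadjusted p below 0.05, 8 were lower and none was higher (33.3%, beside 16.4% of all genes), and 6 fell in the limma fit with an intensity trend (25%, beside 4.3%). The mean over the list was 9.18 and 9.21 in origamicin-treated cells and 9.38 and 9.39 in mock cells. The mitotic motor gene KIF20A (-0.37 ± 0.07) and the kinase gene PLK1 (-0.38 ± 0.07) had its smallest p, and MKI67, a marker of cycling cells, was the 1 gene on the higher side, at 0.10 ± 0.06. The part of cell cycle position in the value of UBE2S was not tested. In bulk RNA such as this, fewer cells in a state and less RNA in each of them cannot be told apart.

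**Figure D2:**
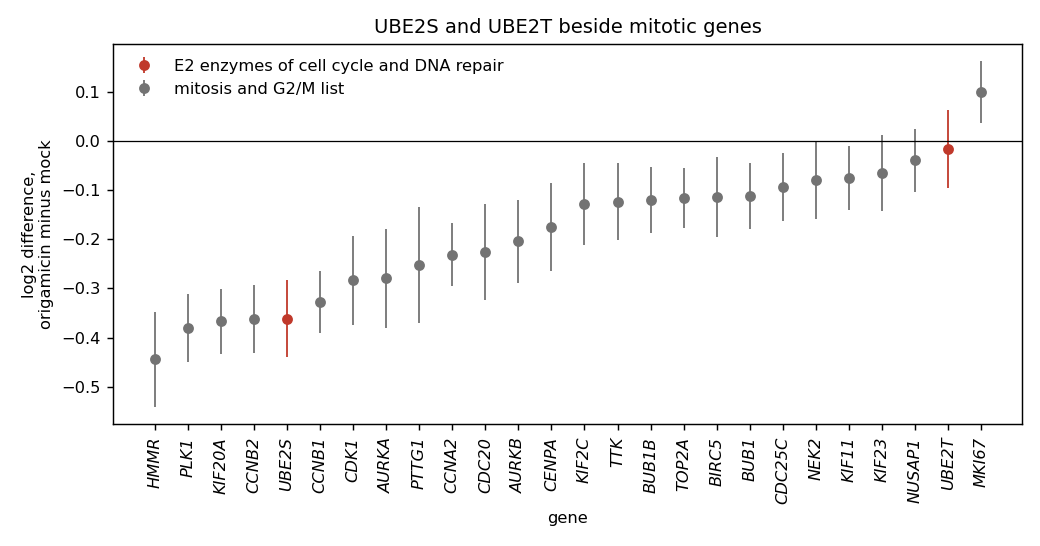
Log2 difference, origamicin minus mock (vertical axis), with moderated SE, for UBE2S and UBE2T and for the 24 tested genes of the mitosis and G2/M list, in ascending order. UBE2S, at -0.36, lies among the lowest mitotic genes, while UBE2T, at -0.02, lies near 0.

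Of the 3 enzymes of K63 chains, 1 had an unadjusted p below 0.05. UBE2V1, the catalytically inactive partner that directs UBE2N to K63 chains, stood at 10.11 and 10.09 in origamicin-treated cells and at 10.32 and 10.27 in mock cells. The groups did not overlap, and the difference was -0.20 ± 0.06, with a limma adjusted p of 0.262 (0.0515 with an intensity trend). Leaving out any 1 of the 4 arrays, the replicate block and quantile normalization each took its unadjusted p above 0.05. The related partner UBE2V2 (-0.01 ± 0.07) overlapped, and so did UBE2N itself, at 5.95 and 5.53 in origamicin-treated cells and 5.56 and 5.68 in mock cells. The interval for UBE2N ran from -0.31 to 0.54, so these arrays place only a loose bound on the catalytic member.

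Among the 8 tested E2 enzymes that place the first ubiquitin, 2 were higher and 6 lower. UBE2A, the RAD6 enzyme that ubiquitinates histone H2B, stood at 8.41 and 8.36 in origamicin-treated cells and at 8.23 and 8.20 in mock cells. Its difference of 0.18 ± 0.06 was the only one in this group at an unadjusted p below 0.05 (limma adjusted p 0.294), and it was above 0.05 under 8 of the 12 alternatives, among them leaving out any 1 of the 4 arrays. UBE2B, which encodes the closely related other RAD6 enzyme, differed by -0.06 ± 0.08. UBE2Z, which takes ubiquitin from the E1 enzyme UBA6, showed a difference of -0.0028 ± 0.07, with an interval from -0.19 to 0.18. The remaining members UBE2D4, UBE2E1, UBE2E2, UBE2E3 and UBE2H had log2 differences between -0.12 and 0.13.

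The K48 chain builders and the ER enzyme did not pass in any fit. UBE2K was higher on both treated arrays, at 10.26 and 10.42 in origamicin-treated cells against 10.15 and 10.23 in mock cells (0.15 ± 0.08, limma adjusted p 0.447). Its limma unadjusted p was 0.138, and 0.041 with an intensity trend. UBE2R2, an E2 of the SCF ligases, was lower at -0.11 ± 0.08, and UBE2G1, which extends chains for cullin ligases, differed by 0.01 ± 0.07. UBE2G2, the E2 of ER-associated degradation, stood at 7.04 and 7.10 in origamicin-treated cells and at 7.11 and 7.14 in mock cells. Its difference was -0.06 ± 0.06, with an interval from -0.23 to 0.12, so a change above 0.12 in the higher direction lies outside the interval. UBE2J1 and UBE2J2, the membrane-bound E2 enzymes of the same pathway, had no named probe set here.

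Of the E2 enzymes for ubiquitin-like proteins only UBE2L6, which carries the interferon-induced modifier ISG15, could be read. It stood at 6.74 and 6.66 in origamicin-treated cells and at 6.86 and 6.72 in mock cells, a difference of -0.09 ± 0.08. USP18, the protease that removes ISG15, differed by -0.12 ± 0.09. Both overlapped between groups, and ISG15 itself differed by -0.01 ± 0.10. Of 10 tested interferon-stimulated genes, 4 were higher and 6 lower (median -0.03). The interferon signalling factor IRF9 (0.35 ± 0.08) and the RNA sensor RIGI (0.44 ± 0.11) had the smallest p on the higher side, and neither passed with an intensity trend. On the lower side the ligase gene HERC6 (-0.43 ± 0.19) and the transcription factor gene IRF7 (-0.13 ± 0.09) had the smallest p, neither below an unadjusted 0.05. UBE2M and UBE2F, enzymes for NEDD8, were not analysed here. UBE2MP1, a pseudogene of UBE2M, stood at 9.44 and 9.34 in origamicin-treated cells and at 9.17 and 9.46 in mock cells. Probes for a pseudogene may share targets with the parent gene, so its value is uncertain.

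The 3 UCH enzymes differed in direction. UCHL1, the neuronal ubiquitin hydrolase, stood at 9.96 and 9.90 in origamicin-treated cells and at 9.71 and 9.71 in mock cells. Both treated values lay above both mock values, and the difference was 0.22 ± 0.07 (95% interval 0.05 to 0.40), a 1.17-fold higher level. Its limma adjusted p was 0.236 (0.044 with an intensity trend), and leaving out origamicin replicate 1, mock replicate 1 or mock replicate 2 took its unadjusted p above 0.05. UCHL3, which also acts on the ubiquitin-like protein NEDD8, was on the lower side, at 8.30 and 8.20 in origamicin-treated cells and 8.43 and 8.59 in mock cells. Its difference was -0.26 ± 0.09, with a limma adjusted p of 0.270 (0.095 with an intensity trend), and with the replicate block, or without origamicin replicate 1, origamicin replicate 2 or mock replicate 2, its unadjusted p exceeded 0.05. UCHL5, which is bound to the proteasome, overlapped between groups at -0.10 ± 0.10.

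UCHL1 is widely used as a neuronal marker, and markers of the noradrenergic neuronal state were mostly lower on these arrays. Of 12 tested noradrenergic markers 11 were lower, 5 of which fell with an intensity trend (41.7%, beside 4.3% of all genes). The list's mean was 9.63 and 9.66 in origamicin-treated cells and 9.91 and 9.94 in mock cells. The granin genes CHGA (-0.80 ± 0.09) and CHGB (-0.76 ± 0.08) and DDC, which makes dopamine (-0.59 ± 0.06), were among the 5, while TH (-0.01 ± 0.12) and GATA3 (-0.02 ± 0.06) did not pass. Of 9 tested mesenchymal neuroblastoma markers, 7 were higher, 4 of which rose with an intensity trend (44.4%, beside 4.3% of all genes). The means of this list were 6.88 and 6.84 in origamicin-treated cells and 6.65 and 6.60 in mock cells. The AP-1 subunit gene FOSL1 (0.76 ± 0.07) and the filament gene VIM (0.45 ± 0.07) had the smallest p among them. Glial and Schwann cell markers averaged 4.73 and 4.83 in origamicin-treated cells and 4.68 and 4.77 in mock cells. CD68, the only leukocyte marker with a named probe set and also a lysosomal protein, stood at 7.01 and 6.90 in origamicin-treated cells and 5.91 and 6.31 in mock cells (0.84 ± 0.15, limma adjusted p 0.0241 with an intensity trend). The marker lists were chosen with earlier results of these data known, so their shares may be set in part by that choice. The markers named here were chosen after their values were seen. The part of cell state in the value of UCHL1 was not tested.

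**Figure D3:**
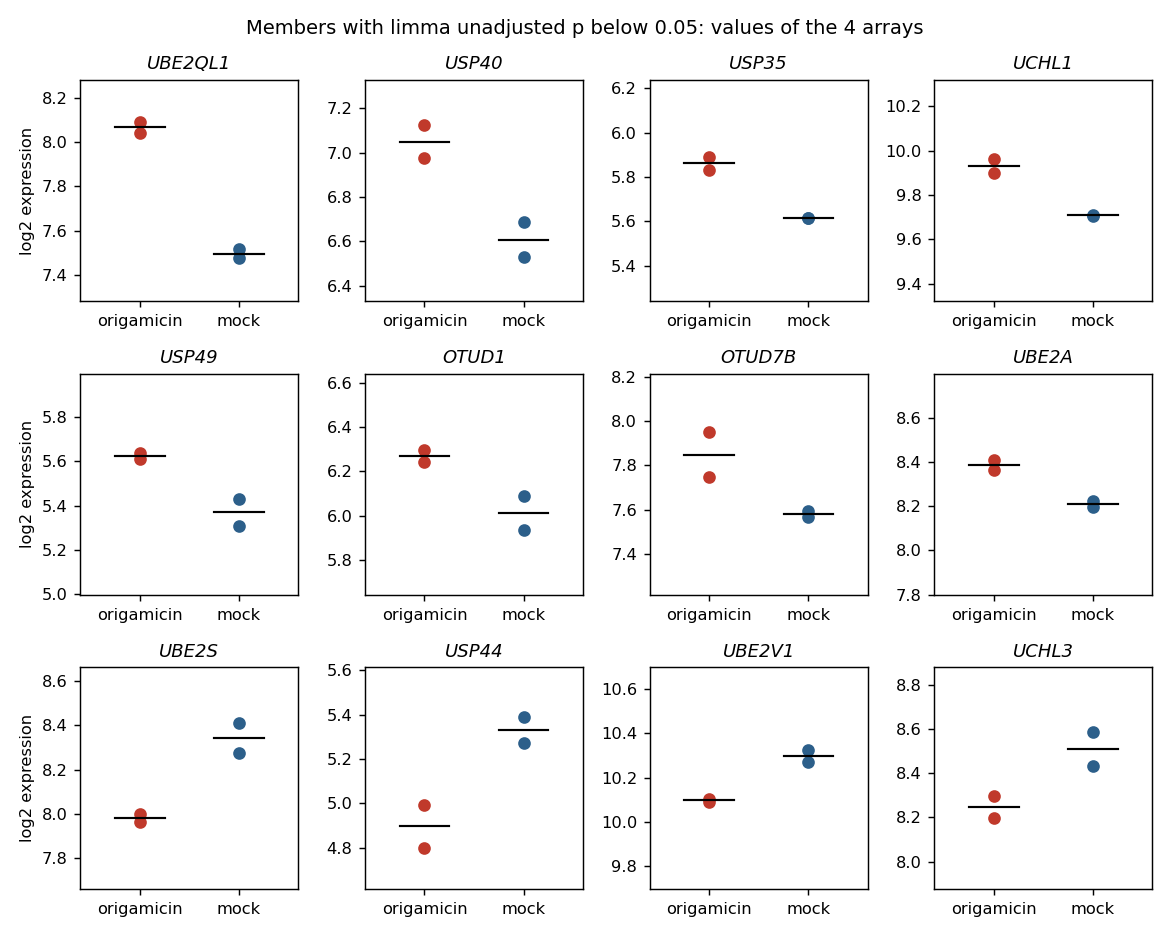
Log2 expression (vertical axis) on the 4 arrays for the 12 members with a limma unadjusted p below 0.05, with origamicin (red) and mock (blue) side by side, a point per array and a bar at each group mean. Each panel spans 1 log2 unit, and in all 12 panels the 2 groups do not overlap, with the widest gap between means in UBE2QL1 (0.57). The 12 were picked by p on these same values, and the groups do not overlap for 48.6% of all genes.

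The OTUD family, ovarian tumour domain proteases, had 5 members on the higher side and 3 on the lower, with a median log2 difference of 0.08. OTUD7B, known as Cezanne, cuts the K11 chains that UBE2S extends. It stood at 7.95 and 7.75 in origamicin-treated cells and at 7.57 and 7.59 in mock cells, a difference of 0.27 ± 0.09. OTUD1 stood at 6.30 and 6.24 in origamicin-treated cells and at 5.94 and 6.09 in mock cells, a difference of 0.26 ± 0.08. Neither gene overlapped between groups, and neither passed: the limma adjusted p values were 0.274 and 0.255, and with an intensity trend 0.117 and 0.212. The unadjusted p exceeded 0.05 with the replicate block in both, without origamicin replicate 1, origamicin replicate 2 or mock replicate 1 in OTUD1, and without origamicin replicate 1 or either mock replicate in OTUD7B. OTUD3 (0.10 ± 0.07), OTUD4 (0.11 ± 0.07) and OTUD5 (0.05 ± 0.07) also lay slightly higher without overlap. OTUD6A (-0.23 ± 0.13), OTUD6B (-0.18 ± 0.13) and OTUD7A (-0.20 ± 0.17) had wider errors and overlapped. OTUD6A was dim, between 3.70 and 4.16, near the filter at 3.82.

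USP40 had the largest difference among deubiquitinases on the higher side. It stood at 6.98 and 7.12 in origamicin-treated cells and at 6.53 and 6.69 in mock cells. The treated arrays lay above the mock arrays, with a difference of 0.44 ± 0.09 (95% interval 0.19 to 0.69) and a 1.36-fold higher level. Its limma adjusted p was 0.177 and passed narrowly with an intensity trend (0.0489). The unadjusted p was below 0.05 under all 12 alternatives, with differences from 0.36 to 0.52. USP35 stood at 5.89 and 5.83 in origamicin-treated cells and 5.62 and 5.62 in mock cells (0.25 ± 0.06, limma adjusted p 0.210). Without origamicin replicate 1 or either mock replicate its unadjusted p exceeded 0.05. The other tested members of this mixed group, USP31, USP38, USP42, USP43, USP48 and USP17L12, had log2 differences between -0.03 and 0.19.

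Deubiquitinases of histones were found on both sides, with 3 of 7 higher and 4 lower. USP44, which acts on histone H2B and on the spindle checkpoint, stood at 4.80 and 4.99 in origamicin-treated cells and at 5.27 and 5.39 in mock cells. It had the largest lower value of any member, -0.43 ± 0.10 (95% interval -0.70 to -0.17), a 1.35-fold lower level. Its limma adjusted p was 0.183 (0.131 with an intensity trend), although the unadjusted p was below 0.05 under all 12 alternatives. USP49, another H2B deubiquitinase, stood at 5.64 and 5.61 in origamicin-treated cells and at 5.31 and 5.43 in mock cells, 0.25 ± 0.07 with a limma adjusted p of 0.236. It was above an unadjusted 0.05 with an intensity trend and without origamicin replicate 1, origamicin replicate 2 or mock replicate 1. USP22, the H2B deubiquitinase of the SAGA coactivator, was nearly constant, at 11.00 and 11.01 in origamicin-treated cells and 11.00 and 11.00 in mock cells, with a difference of 0.0055 ± 0.06. The interval for USP22 ran from -0.16 to 0.17. USP21, an H2A deubiquitinase, differed by -0.12 ± 0.07, and USP3, USP16 and USP51 had log2 differences between -0.10 and 0.13.

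The deubiquitinases of the proteasome and of free chains gave no call. USP14, which trims chains on the proteasome, was higher without overlap, at 10.22 and 10.23 in origamicin-treated cells and 10.06 and 10.09 in mock cells (0.15 ± 0.06, limma adjusted p 0.340, and 0.096 with an intensity trend). USP5, which recycles free chains, differed by -0.04 ± 0.06 with an interval from -0.21 to 0.13. Its relative USP13 differed by -0.11 ± 0.10. None of the 3 passed an adjusted p of 0.05 in any fit. The limma unadjusted p of USP14 was 0.066, and 0.0075 with an intensity trend. It was also below 0.05 with the 60th percentile filter (0.0478) and with quantile normalization (0.0474).

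No member of the p53 and DNA damage group passed. USP7, which stabilises both p53 and its ligase MDM2, stood at 9.68 and 9.74 in origamicin-treated cells and at 9.84 and 9.83 in mock cells (-0.13 ± 0.07, limma adjusted p 0.428). The limma unadjusted p of USP7 was 0.122, and 0.027 with an intensity trend. USP47, which acts in base excision repair, differed by -0.04 ± 0.07. USP28 and USP45 differed by 0.01 ± 0.07 and -0.08 ± 0.07. USP10 and USP11 were not analysed here.

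Among the enzymes of membranes and organelles, USP19 is anchored in the ER membrane. It stood at 8.49 and 8.48 in origamicin-treated cells and at 8.49 and 8.30 in mock cells, overlapping, at 0.09 ± 0.09. USP25 differed by -0.07 ± 0.06 and USP33 by -0.06 ± 0.07. USP8, the deubiquitinase of endosomal sorting, differed by 0.08 ± 0.07. Its endosomal partner STAM2 stood at 8.57 and 8.70 in origamicin-treated cells and 8.31 and 8.37 in mock cells (0.30 ± 0.08). This came close to the threshold with an intensity trend (limma adjusted p 0.0504, and 0.216 without the trend). USP20 and USP6, with log2 differences of -0.12 and -0.15, did not pass. USP30, of the mitochondrial outer membrane, differed by -0.0018 ± 0.08.

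The 3 enzymes that WDR48 activates showed no common direction: USP1, which deubiquitinates FANCD2 and PCNA, differed by 0.09 ± 0.07, USP12 by -0.12 ± 0.10 and USP46 by -0.11 ± 0.07. WDR48 itself differed by -0.00088 ± 0.08. Among signalling enzymes, USP34 (0.0015 ± 0.07), USP24 (-0.03 ± 0.07) and USP4 (0.04 ± 0.07) lay near 0. USP37 was higher without overlap at 0.20 ± 0.09, and USP15, which acts in TGF-β signalling, was lower without overlap at -0.13 ± 0.07. Neither passed an unadjusted p of 0.05 in the limma fit with a single prior variance. With an intensity trend the limma unadjusted p of USP37 was 0.022 and that of USP15 was 0.142. USP2, a clock-controlled gene, stood at 6.18 and 6.11 in origamicin-treated cells and at 6.28 and 6.33 in mock cells (-0.16 ± 0.07). Its dimmer second probe set stood at 4.75 and 4.80 in origamicin-treated cells and 5.21 and 5.10 in mock cells, a difference of -0.38 in the same direction. USP39, a splicing factor without protease activity, differed by -0.03 ± 0.06. USP53 and USP54, long classed as inactive, differed by 0.01 ± 0.10 and -0.06 ± 0.08.

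**Figure D4:**
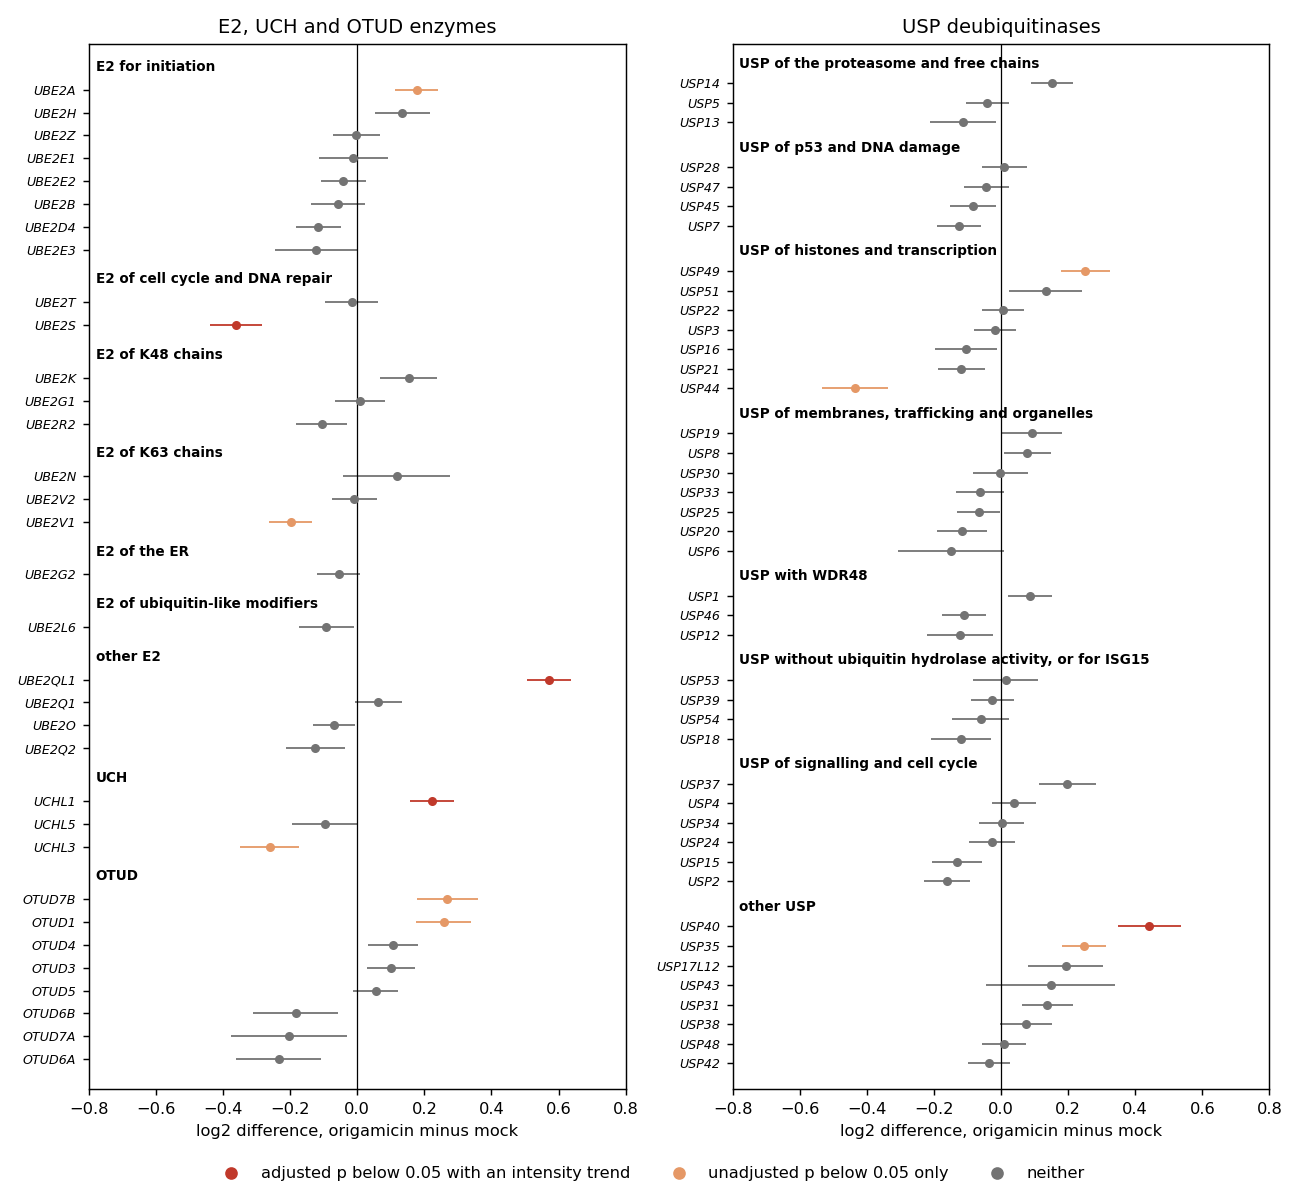
Log2 difference, origamicin minus mock (horizontal axis), with moderated SE, for the 22 tested E2 enzymes and 53 tested deubiquitinases grouped by role, coloured by whether they passed with an intensity trend, had only an unadjusted p below 0.05, or neither. Most points lie near 0, and UBE2QL1, UBE2S, UCHL1 and USP40 are the 4 that passed.

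The members that are not coding genes gave no call. The 6 tested were UBE2DNL, UBE2MP1, USP17L9P, USP2-AS1, USP3-AS1 and USP32P1, none with an unadjusted p below 0.05. USP3-AS1, antisense to USP3, differed by -0.11 ± 0.09, while USP3 differed by -0.02 ± 0.06. USP17L9P and the coding USP17L12 had identical values on all 4 arrays (0.19 ± 0.11), belong to a family of near-identical copies and amount to 1 measurement. USP6NL differed by 0.03 ± 0.06. The 10 members below the filter were UBE2NL, UBE2Q2P1, UBE2U, USP17L10, USP17L15, USP26, USP27X-DT, USP29, USP30-AS1 and USP50. Their means over the 4 arrays ran from 2.10 (UBE2U) to 3.80 (USP29), and they were not tested.

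Other genes of the cascade were tested in the same fit. A further 74 genes stood in 5 lists: E1 enzymes, ubiquitin precursors, genes of deubiquitinase families and of the E2 family with other names, and cofactors of the members. Of these, 48 were tested, 19 higher and 29 lower, with a median of -0.03. None passed an adjusted p of 0.05 with an intensity trend. At an unadjusted p below 0.05 there were 5 (10.4%, beside 16.4% of all genes), 3 higher and 2 lower. With an intensity trend there were 11 of the 48 at that threshold, where 19.7% of all genes stood. Among E1 enzymes 6 of 7 were lower, with a median of -0.11 and none at an unadjusted p below 0.05. UBA1, the main ubiquitin E1, stood at 10.74 and 10.72 in origamicin-treated cells and at 10.86 and 10.93 in mock cells (-0.17 ± 0.07), without overlap. UBA3, of the NEDD8 E1, differed by -0.16 ± 0.07, and UBA6 was the 1 E1 on the higher side, at 0.01 ± 0.06. The ubiquitin gene UBB differed by -0.01 ± 0.06.

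Of 14 tested genes of deubiquitinase families with other names, not all of them ubiquitin proteases, 6 were higher and 8 lower. PAN2, a deadenylase subunit with a USP-like domain, differed by -0.21 ± 0.07 and ATXN3, the Machado-Joseph disease protease, by -0.18 ± 0.07. JOSD1 (0.10 ± 0.07) and CYLD (0.08 ± 0.09), which cuts K63 and linear chains, had the smallest p on the higher side. Of 7 genes of the E2 family with other names, ATG10 (-0.23 ± 0.09) and TSG101 (-0.11 ± 0.07) were lowest in p on the lower side. On the higher side these were ATG3 (0.06 ± 0.06) and UFC1 (0.04 ± 0.07). Among 19 tested cofactors, RNF111, a ligase that reads SUMO chains, stood at 8.11 and 8.07 in origamicin-treated cells and at 7.87 and 7.81 in mock cells (0.25 ± 0.07). RNF139, an ER-membrane ligase, differed by -0.31 ± 0.11 and the stress granule protein gene G3BP1, whose product binds USP10, by -0.16 ± 0.07.

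Genes of the oxidative stress response were read on the same arrays. Of 22 listed NRF2 targets, 11 had a named probe set and were tested, and 10 of these were higher, with a median of 0.37. This list was chosen with earlier results of these data known, so its shares are no independent contrast to the enzymes. At an unadjusted p below 0.05, 9 were higher and 1 was lower (90.9%, beside 16.4% of all genes), and 7 rose in the limma fit with an intensity trend (63.6%, beside 4.3%). TXNRD1, which reduces thioredoxin, differed by 0.74 ± 0.06 and the autophagy receptor SQSTM1, which binds ubiquitin chains on cargo, by 0.70 ± 0.07. TALDO1 was the 1 lower member, at -0.29 ± 0.06. The difference between these genes and the enzymes described above was not tested.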

How the data were processed

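The log2 expression values per probe set were used as the authors deposited them. Per the submitters' processing notes RMA and limma were used, with no version stated. A genome build is not given in the sources used here. Deposited values ran from 0.574 to 14.5 with array medians of 4.37 to 4.42, so no further normalization was applied. Array intensities have no counting depth, and the number of arrays limits the precision.

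Of 53617 probe sets, 16098 had 1 gene symbol in the platform annotation, none had several, and the other 37519 carry no name here. The RefSeq table held all 16098 identifiers. The brightest probe set was kept for each of 14884 genes, and dim genes, with a mean under 3.82 (percentile 40 over the full array), were dropped, which left 11883. Of 87 enzymes listed by role, 17 had no named probe set and were not analysed.

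The test was limma 3.58.1 under R 4.3.3 (lmFit, eBayes with a single prior variance, two-sided, origamicin minus mock), with Benjamini-Hochberg adjustment over the 11883 genes and a threshold of 0.05. SEs are moderated. The fit was tested on simulated data. The members and gene lists were chosen with earlier results of these data known. Named members were those with an unadjusted p below 0.05 (at most 15 a side), the 2 with the highest mean in each role group, and 21 fixed names, of which 14 had a named probe set. From each pathway and response list the 2 genes with the smallest p on each side were named. Cell type markers and other names outside this rule were chosen after their values were seen. Motifs were counted in Python 3.11.15. As alternatives, each array was left out in turn, eBayes was made robust or given an intensity trend, the replicate number entered as a block, the filter was removed or set at the 60th percentile, arrays were set to equal medians or quantile normalized, and probe sets of a gene were averaged.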

Additional observations from a re-analysis of the deposited data

How the results depend on the processing

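The labels do not say whether same-numbered replicates share a culture or day, and the deviations of same-numbered arrays from their group means correlated at -0.02. With the number as a replicate block, members at an unadjusted p below 0.05 became 5 higher and 2 lower, E2 enzymes 2 and deubiquitinases 5. With the block 14.5% of all genes stood at that threshold. No member or other gene passed the adjusted threshold with the block. Calls at an adjusted p of 0.05 depended on the filter and on the prior variance: 92 genes and 1 member (UBE2QL1) passed with the 60th percentile filter, which tests 9269 genes, 511 genes and 4 members with an intensity trend, and 0 in the other 10 alternatives. Unadjusted counts in the ubiquitin pathway lists, 5 as reported, were 8 and 11 under those 2 settings. At that threshold 16.4% of all genes stood as reported, and 21% and 19.7% under those 2 settings. E2 enzymes at that threshold were 2 with quantile normalization, where 16.5% of all genes stood. Leaving out 1 array at a time gave 634 to 818 genes higher and 602 to 851 lower, 2 to 7 members higher and 2 to 3 lower, 2 to 3 E2 enzymes, 3 to 6 deubiquitinases and 1 to 3 pathway genes, with fewer samples and residual degrees of freedom by construction. A lone array is then assumed to vary like the other group.

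The 12 members at an unadjusted p below 0.05 kept their direction under all 12 alternatives. For these 12 only equal array medians and quantile normalization could have changed it. Values near 0 changed sign. With equal array medians, UBE2G1, USP48, USP22 and USP34 stood at -0.0072, -0.0084, -0.011 and -0.015, and with quantile normalization UBE2Z and UBE2T at 0.0030 and 0.0068. Leaving out 1 array gave -0.052 to 0.046 for UBE2Z, -0.077 to 0.044 for UBE2T, -0.051 to 0.069 for UBE2G1, -0.042 to 0.024 for UBE2V2, -0.064 to 0.22 for UBE2MP1, -0.027 to 0.043 for USP48, -0.0017 to 0.013 for USP22, -0.036 to 0.039 for USP34, -0.15 to 0.026 for USP54, -0.21 to 0.011 for UCHL5, -0.091 to 0.33 for UBE2N and -0.0021 to 0.19 for USP19. The cause of these changes was not tested.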
